A study of Drosophila melanogaster with 6 samples.

Results

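The transcripts described here are those with FlyBase identifiers whose levels in HB10 cells were at least 2-fold lower after 24 h at 14 °C than after 24 h at 24 °C. Members were chosen as array probes with a FlyBase transcript identifier that were well above background on all 6 arrays. Their mean log2 value in the authors' processed table had to be lower by 1 or more at 14 °C, with all 3 values at 14 °C below all 3 values at 24 °C. CG3902's main probe was left out, while a second CG3902 probe stayed in. The rule found 69 probes for 63 transcripts among 13545 eligible FlyBase probes and 32162 gene probes in all. As the members were picked on this contrast, their differences are a description and carry no test.

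HB10 is a single Drosophila melanogaster cell line, established from embryos that expressed activated Ras (UASt-ras85D V12) in all cells under Act5C-GAL4, so that both groups share this transgene. Cultures grown at 24 °C were either shifted to 14 °C (group T14) or kept at 24 °C (group T24) for 24 h, with 3 biological replicates each. Total RNA was labelled with Cy3 and hybridized to single-colour Agilent Drosophila V2 arrays. Replicate 1 of both groups was on slide 1, and the other replicates were on slide 2. Between 57.7 and 59.4% of the 43602 gene spots on an array exceeded background clearly, with 0 saturated. The upper quartile (75th percentile) of uncorrected brightness was lowest in replicate 2 at 14 °C, at 923, against 1394 to 1684.5 on the other arrays. According to the study, HB10 cells resemble precursors of adult muscles. Of 8 markers of these precursors 3 could be matched to probes by name, and all 3 were well above background on all arrays. The myogenic factor twi had a mean log2 level of 13.69 at 14 °C and 13.93 at 24 °C, and the transcription factors ct and vg had levels of 9.02 to 13.15. Of 8 hemocyte markers only the GATA factor srp was matched, and its probe was above background on 0 arrays. Some markers of other cell types were detected too. The germ line gene nos was above background on all arrays, with 8.44 at 14 °C and 8.43 at 24 °C, as was 1 of 2 probes of vas. The neuronal gene brp was above background on some arrays only. Detection of these few markers thus does not single out a cell type.

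Flies and their cells take the temperature of their surroundings, so that cooling slows enzymes and changes the folding, turnover and demand of proteins. Small heat shock proteins are chaperones that bind unfolding proteins without using ATP. In Drosophila their transcription is known to increase in the heat and in response to the molting hormone ecdysone. Mitochondria take up calcium through a uniporter complex in the inner membrane and break down the branched amino acids valine, leucine and isoleucine with a chain of dehydrogenases in the matrix. Genes of these systems were among the members for which a gene symbol was known, which were 9 probes for 8 genes. The remaining 60 probes stand under their transcript identifiers. Apart from the 2 probes with the greatest differences, the identifiers named below were chosen after their values were seen.

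After reprocessing of the scanner files, all 69 members had lower levels on each array at 14 °C than on any array at 24 °C. Of these, 57 differed by 1 or more on the log2 scale, and 12 differed by less. Of the 13545 eligible FlyBase probes, 23.3% had lower values at 14 °C without overlap in the authors' table, and 0.509% met the whole rule. In the reprocessed values, 21.1% of 18789 tested probes were lower without overlap, and 0.341% were CoolDown, the study's word for transcripts lower in the cool, here with an adjusted p under 0.01 by limma and a fold change of at least 2. The members' differences ranged from -2.34 to -0.92, with a median of -1.11, or 2.15-fold, which left 46.4% of the level at 24 °C. The median over all tested probes was -0.01. Since RNA was extracted from whole cultures, less transcript per cell and fewer cells carrying it cannot be told apart. With each array scaled to its median in place of quantile normalization, only 6 members differed by 1 or more, but the median of all tested probes was then 0.41, and the members' median lay -1.07 from it.

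**Figure D1:**
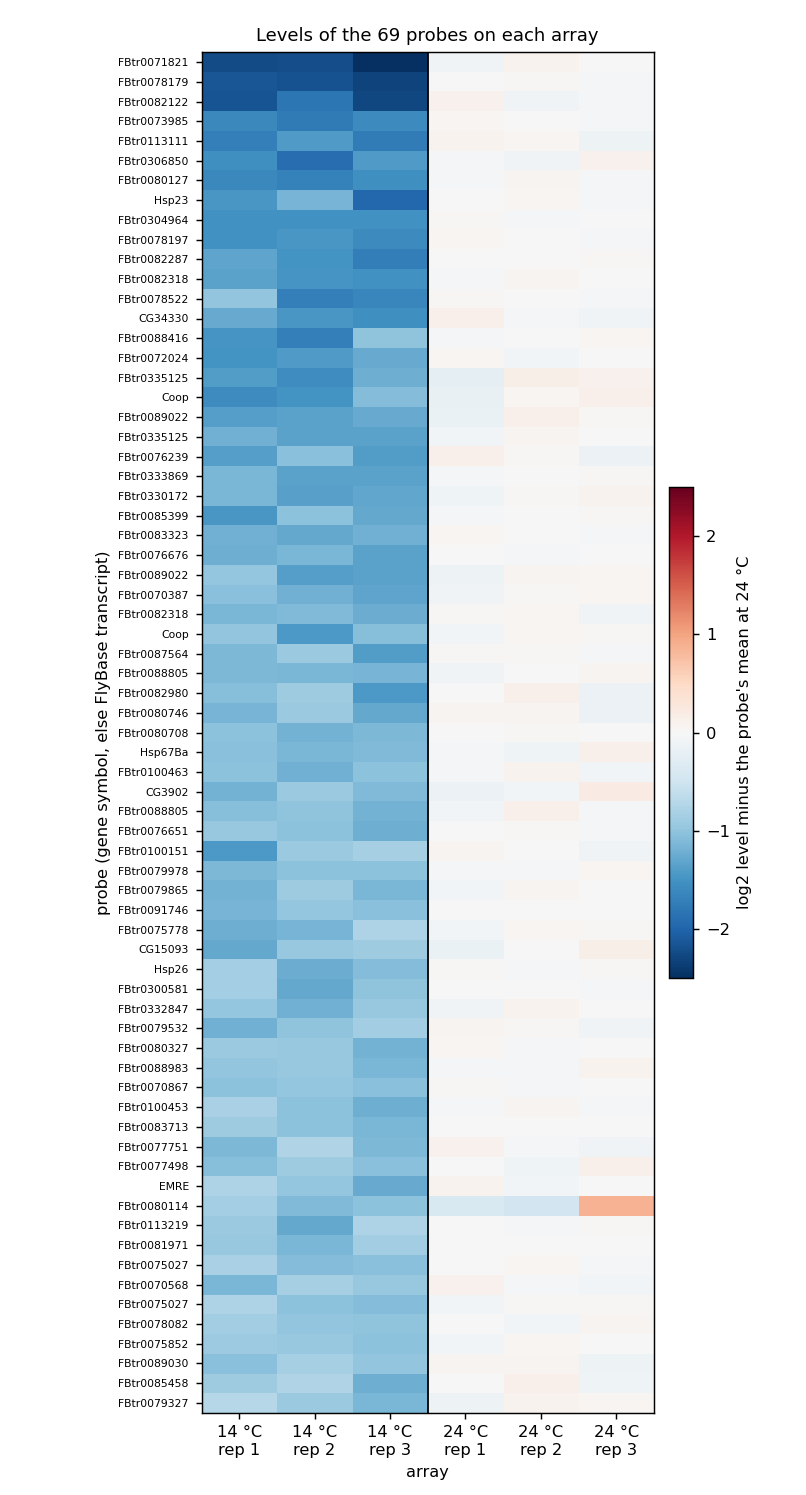
Log2 level of each of the 69 member probes (rows, ordered by the difference between the groups) on the 6 arrays (columns), minus the mean of the same probe at 24 °C. All members are blue on the 3 arrays at 14 °C. FBtr0080114 is the row in which the 24 °C arrays differ most, with an SD of 0.75.

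**Figure D2:**
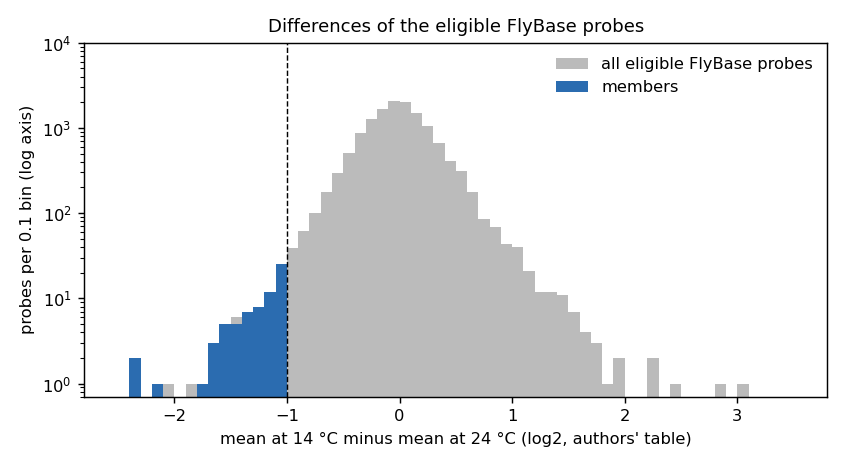
Number of eligible FlyBase probes (grey) and of members (blue) per 0.1 bin of the mean log2 value at 14 °C minus that at 24 °C in the authors' table. The vertical axis is logarithmic, and the dashed line marks -1. Of 13545 eligible probes, 69 are members, and 115 were higher by 1 or more at 14 °C without overlap.

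Most members lay close to the threshold. In the reprocessed values 11 of the 69 had differences of -1.5 or less and 3 of -2 or less. FBtr0078179 had the greatest difference in the authors' table. Its log2 levels were 8.04, 8.0 and 7.87 at 14 °C and 10.18, 10.20 and 10.15 at 24 °C, a difference of -2.21 (4.62-fold). In uncorrected brightness its spots read 226, 163 and 210 at 14 °C, and 1103, 1170 and 1218 at 24 °C. The replicates of each temperature thus lay within a narrow band, and the gap between the groups was 2.10. FBtr0071821 was more abundant, at 11.54, 11.55 and 11.20 at 14 °C and at 13.68, 13.86 and 13.77 at 24 °C. Its difference of -2.34 (5.05-fold) left 19.8% of the level at 24 °C. For FBtr0082122 the levels were 9.12, 9.47 and 9.00 at 14 °C and 11.39, 11.19 and 11.25 at 24 °C, a difference of -2.08. In these 3 transcripts 19.8 to 23.7% of the level at 24 °C was left.

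Next in order were members with 31.8 to 35.2% left. FBtr0073985 had levels of 9.52, 9.36 and 9.53 at 14 °C and of 11.18, 11.11 and 11.09 at 24 °C. FBtr0113111 had levels of 10.57, 10.87 and 10.53 at 14 °C, and 12.37, 12.33 and 12.15 at 24 °C. In both, the gap between the groups (1.56 and 1.28) was many times the spread within a group. FBtr0306850 varied more at 14 °C, with 9.82, 9.45 and 9.93 against 11.33, 11.26 and 11.47. FBtr0080127 had 10.23, 10.16 and 10.31 at 14 °C against 11.82, 11.92 and 11.80. FBtr0304964 was the most even at 14 °C, with 8.89 on each array at 14 °C and 10.43, 10.37 and 10.39 at 24 °C. FBtr0078197 and FBtr0082287 both differed by -1.51, FBtr0078197 from a mean of 11.23 ± 0.04 at 24 °C (SD, n = 3) and FBtr0082287 from 12.36 ± 0.02.

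Members were found over a wide range of levels. Their mean log2 level at 24 °C ranged from 8.26 to 16.36 with a median of 10.80, while the median of all eligible FlyBase probes was 10.42 with quartiles of 8.56 and 12.10. The brightest member was FBtr0079532, with 15.16, 15.36 and 15.49 at 14 °C and 16.44, 16.39 and 16.27 at 24 °C. The dimmest was FBtr0080114, and it was also the member with the least even values. Its levels were 7.40, 7.15 and 7.24 at 14 °C and 7.88, 7.77 and 9.12 at 24 °C, so that replicate 3 at 24 °C stood far above the other two. Without that array its difference in the authors' table was -0.63, the smallest of any member with an array left out.

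Replicates varied more at 14 °C than at 24 °C. The SD over replicates was larger at 14 °C for 57 of 69 members (82.6%), with a median SD of 0.14 at 14 °C and 0.07 at 24 °C. The same held for 78.4% of eligible FlyBase probes, with median SDs of 0.13 and 0.07, and so the spread of the members was close to that of the array as a whole. Over the members, the median level was 9.60, 9.54 and 9.61 on the 14 °C arrays and 10.85, 10.83 and 10.90 on the 24 °C arrays. No single array at 14 °C was the lowest throughout. Replicate 3 was lowest for 32 members, replicate 2 for 22 and replicate 1 for 15. Over all eligible FlyBase probes the shares were 35.8% for replicate 3, 36.0% for replicate 2 and 28.2% for replicate 1. Within slide 1 the median difference was -1.10 and within slide 2 it was -1.15. All 69 members were lower at 14 °C on both slides, which follows from the rule that the groups not overlap. When single arrays were left out of the authors' table, 59 to 65 members stayed at -1 or less.

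Of the 8 genes with a symbol, 3 encode small heat shock proteins. Only 12.7% of probes had a symbol, and symbols came in part from the study's own lists of heat shock and central metabolic genes. Such genes were therefore more readily named than others, and the count gives no share of the members. Hsp23 had the greatest difference of these. Its levels were 12.42, 12.71 and 11.91 at 14 °C and 13.87, 13.93 and 13.83 at 24 °C, a difference of -1.53 (2.89-fold). The arrays at 14 °C were spread over a wide range (SD 0.40, the highest among members), yet the nearest values of the groups were still 1.12 apart. Hsp26 had levels of 13.27, 12.88 and 13.03 at 14 °C and of 14.14, 14.06 and 14.14 at 24 °C, a difference of -1.05. Hsp67Ba was less abundant. The member probe read 8.86, 8.76 and 8.80 at 14 °C and 9.88, 9.80 and 10.02 at 24 °C, a difference of -1.09, and a further probe of the gene differed by -0.83. In the gene table of the Release 6 plus ISO1 MT assembly these genes lie in one row on chromosome arm 3L, in the order Hsp67Bc, CG4456, Hsp22, CG4461, Hsp26, Hsp67Ba, an antisense RNA gene, Hsp23 and Hsp27.

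The other 3 small heat shock protein genes that could be matched by name were not members, and all 3 passed the limma test as lower at 14 °C (n = 3 per group, adjusted p under 0.01), where 5.78% of all tested probes did. Hsp27 was measured by 4 probes with differences between -0.89 and -0.86. The brightest of them differed by -0.87 ± 0.10 (SE, adjusted p = 0.000385 by limma). Hsp22, whose product resides in mitochondria, differed by -0.88 ± 0.13 (adjusted p = 0.00163 by limma). Hsp67Bc differed by -0.73 ± 0.12 with its brighter probe (adjusted p = 0.00310 by limma) and by -0.82 with the dimmer one. Each of these probes had lower values on all arrays at 14 °C than on any at 24 °C. The same held for 21.1% of all tested probes. The 6 matched genes of the row therefore lay between -1.53 and -0.73, and the rule divided them at -1. The calls were lost with arrays scaled to their median (either way) and with the signal as corrected by the scanner software, where 0 of 3 passed. Relative to all tested probes, the median of the 3 genes was -0.87 with quantile normalization, -0.56 with either median scaling and -0.92 with the software's signal. When replicate 1 or 2 of the 24 °C group was omitted, 2 of 3 passed.

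**Figure D3:**
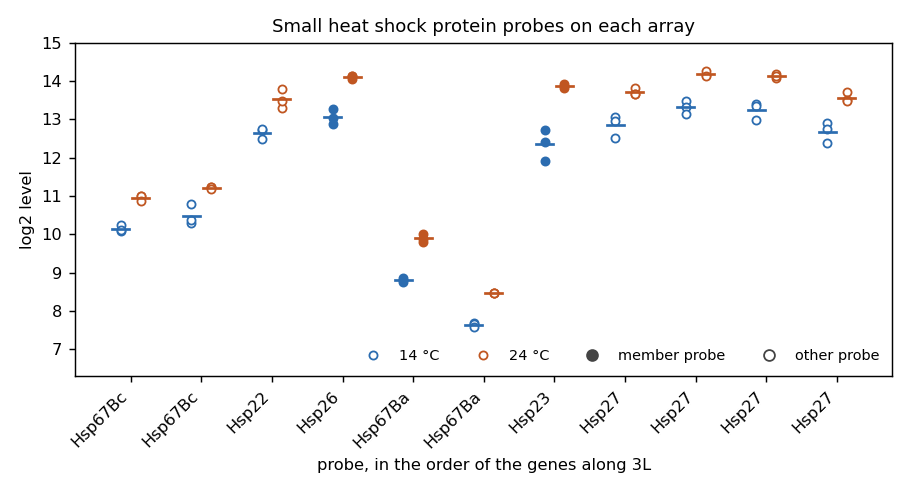
Log2 level of every probe of the 6 matched small heat shock protein genes on each of the 6 arrays, with 14 °C in blue and 24 °C in orange. Points are arrays and bars are means of 3 arrays, filled points mark member probes, and the order follows the genes along 3L. The groups do not overlap for any of the 11 probes, and the differences range from -1.53 to -0.73. Lack of overlap was required of the member probes by the rule, and 4 of the other probes measure Hsp27 alone. Of all tested probes, 21.1% were lower without overlap.

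Of 7 matched genes of other chaperone families, 1 passed the test as lower and 0 as higher, with a median difference of -0.26. The one that passed was the mitochondrial chaperonin Hsp60A, at -0.61 ± 0.10 (adjusted p = 0.00342 by limma, n = 3 per group), which was 0.16 with median scaling over all gene spots. It did not pass with either median scaling, with the software's signal, or when replicate 1 of the 14 °C group or replicate 1 or 2 of the 24 °C group was omitted. The 6 genes that did not pass were Hsp70Bc, one of several near-identical Hsp70 copies whose probes may not tell them apart, and mrj at -0.29 each, DnaJ-1 at -0.26, Hsp68 at -0.13, Hsc70-4, the constitutive Hsp70, at -0.04 and Hsf, which encodes the heat shock factor, at -0.01.

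Several of the named members encode mitochondrial proteins, with the same limit from the naming. CG3902 encodes a predicted acyl-CoA dehydrogenase of branched substrates. Its member probe read 7.34, 7.60 and 7.42 at 14 °C and 8.39, 8.47 and 8.73 at 24 °C, a difference of -1.08, while the main probe left out by the rule was brighter and differed by -1.75 (9.67, 9.72 and 9.26 against 11.24, 11.33 and 11.34). CG15093 encodes a predicted 3-hydroxyisobutyrate dehydrogenase, an enzyme of valine degradation. Its levels were 10.46, 10.79 and 10.86 at 14 °C and 11.59, 11.76 and 11.89 at 24 °C, a difference of -1.05, and its brighter second probe differed by -0.81. For both genes each of 2 probes read lower on every array at 14 °C. The rule required this of the member probes, and the main probe of CG3902 also met the rule before it was left out. Only the second probe of CG15093 was free to differ, and 21.1% of all tested probes were lower without overlap. EMRE encodes an essential regulator of the mitochondrial calcium uniporter. It had levels of 11.35, 11.17 and 10.87 at 14 °C and of 12.21, 12.06 and 12.12 at 24 °C, a difference of -1.0, which placed it at the threshold itself.

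Among the members with other roles, Coop encodes a corepressor that acts on Pangolin, the DNA-binding factor of the Wnt pathway. Both its probes were members. One read 10.93, 11 and 11.42 at 14 °C and 12.32, 12.55 and 12.62 at 24 °C, a difference of -1.38. The other was brighter, with 12.88, 12.43 and 12.79 against 13.79, 13.91 and 13.89, a difference of -1.16. The 2 probes did not order the arrays at 14 °C alike, since replicate 3 was the highest on the first and replicate 1 on the second. CG34330 had levels of 10.39, 10.20 and 10.11 at 14 °C and of 11.78, 11.60 and 11.57 at 24 °C, a difference of -1.42.

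Repeated spots show how far a difference depends on the single spot, and further probes how far it depends on the single probe. Of the 69 members, 33 were printed on 2 spots and 36 on 1. Both spots were lower at 14 °C for all 33, and both differed by 1 or more for 25, with a median disagreement between the spots of 0.04 and a maximum of 0.19. Since members were picked on values summarised from these same spots, the shared direction was largely given beforehand. For 6 transcripts 2 different probes were members. Besides that of Coop these were FBtr0335125 (-1.39 and -1.30), FBtr0082318 (-1.45 and -1.16), FBtr0089022 (-1.32 and -1.22), FBtr0088805 (-1.14 and -1.08) and FBtr0075027 (-0.97 and -0.96).

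A further 17 probes measured transcripts or genes of the members without being members themselves. Of the 16 that were tested, 13 were lower at 14 °C, 12 of them without overlap, against a background of 21.1% of tested probes. Their median difference was -0.47, less than that of the members, and 1 differed by 1 or more, the main probe of CG3902. FBtr0079532 was measured by a second probe at 16.61, 16.61 and 16.80 against 17.54, 17.60 and 17.47, a difference of -0.86. Similar values came from the second probes of FBtr0113219 (-0.81) and FBtr0085458 (-0.73). Much smaller differences than those of the member probes came from other second probes. They were -0.35 against -1.51 for FBtr0304964, -0.33 against -1.09 for FBtr0100463, -0.43 against -1.02 for FBtr0088983 and -0.16 against -0.96 for FBtr0078082.

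For 3 transcripts a further probe was higher at 14 °C. FBtr0082122, the member with the third greatest difference, was measured by 2 more probes. One of them read 8.82, 8.80 and 9.06 at 14 °C and 8.89, 8.83 and 9.06 at 24 °C, a difference of -0.03. The other, far brighter, read 13.14, 12.96 and 13.05 against 12.83, 12.70 and 12.81, a difference of 0.27. FBtr0070867 differed by -1.01 with its member probe and by 0.34 with a brighter one, and FBtr0080708 by -1.11 and 0.17. In these cases the probes assigned to one identifier did not measure the same change. FBtr0071821 had a second probe that was above background on 0 arrays, so that its large difference rests on 1 probe spotted once.

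**Figure D4:**
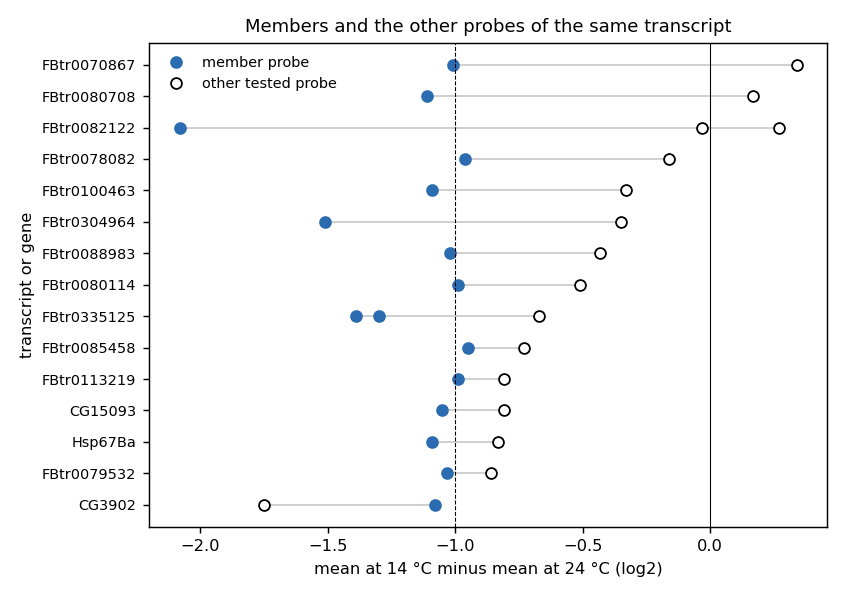
Difference between the temperatures (mean log2 level at 14 °C minus that at 24 °C) for member probes (blue) and for the other tested probes (open) of the same 15 transcripts or genes. The dashed line marks -1. Of 16 other probes, 13 lie left of 0 and 1 lies left of the dashed line.

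The threshold cut through a continuous distribution. With thresholds of 0.9 and 1.1 in place of 1, the rule would have taken 108 and 44 probes. The members just inside it were FBtr0078082, FBtr0079532 and FBtr0075852, with differences of -1.01, -1.01 and -1.0 in the authors' table. Just outside lay Nox, which encodes an NADPH oxidase, FBtr0309209 and FBtr0331719, each at -0.99. A further 2 probes had a mean difference beyond -1 but overlapping groups. A CG18335 probe had 7.88, 7.92 and 15.06 at 24 °C in the authors' table, against 8.18 to 8.36 at 14 °C, and an FBtr0113281 probe had 8.24, 12.38 and 8.84 at 24 °C. In both, 1 array made the mean, and its spot was flagged as an outlier by the scanner software and left out of the reprocessed values.

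To place the members among related genes, 9 lists of genes were examined, leaving out the genes of the members as far as these had a symbol. Across all tested probes 5.78% were lower and 6.13% were higher at an adjusted p under 0.01 by limma, without a minimum fold change. The directions given in the following are those of quantile-normalized values, and those of Mdh2, mAcon1, kdn, Cox11, CPT2, Tpi, Mccc2, GstE8 and Hsp60A turned slightly positive (0.02 to 0.17) with median scaling over all gene spots, where the median of all tested probes was 0.41, while that of GstE2 turned to -0.01 with median scaling over spots above background. The list of enzymes for the degradation of branched amino acids had 5 further genes with a symbol. Of these, 2 were lower and 0 higher, with a median of -0.39 against -0.01 for all tested probes. They were CG17896, a predicted methylmalonate semialdehyde dehydrogenase of the valine pathway, at -0.80 ± 0.12 (adjusted p = 0.00152 by limma), and Mccc2, a subunit of methylcrotonyl-CoA carboxylase in leucine degradation, at -0.49 ± 0.09 (adjusted p = 0.00490 by limma). Whichever array was omitted, only 0 or 1 of the 5 genes passed as lower. With the software's signal or either median scaling 0 passed. In the broader list of amino acid catabolism 5 of 19 genes were lower and 1 higher, with a median of -0.13, and between 1 and 4 were lower whichever array was omitted. GstZ1, a maleylacetoacetate isomerase of tyrosine breakdown, had -0.89 ± 0.11 (adjusted p = 0.000560 by limma). The gene that passed as higher was Tat, a tyrosine aminotransferase, whose difference of 0.75 ± 0.07 (adjusted p = 0.000171 by limma) is poorly determined. Its probe was above background on 3 arrays at 14 °C but on 1 at 24 °C, and its difference ranged from 0.13 with median scaling over spots above background to 2.83 with gProcessedSignal, the signal as corrected by the scanner software.

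In the TCA cycle 7 of 20 genes were lower and 0 higher, with a median of -0.34, which lay only -0.05 from all tested probes with either median scaling. With gProcessedSignal 1 was lower, omission of replicate 1, 2 or 3 of the 24 °C group left 3, 3 or 4, and omission of replicate 1 of the 14 °C group left 4. The greatest differences were those of SdhA, the flavoprotein of succinate dehydrogenase, at -0.81 ± 0.10, of the malate dehydrogenase Mdh2 at -0.73 ± 0.09, of the aconitase mAcon1 at -0.66 ± 0.09 and of the citrate synthase kdn at -0.64 ± 0.11. Their adjusted p values by limma were between 0.000515 and 0.00310, and a dimmer SdhA probe had -0.40 (adjusted p = 0.0186 by limma). Of 85 genes of oxidative phosphorylation, 20 were lower and 0 higher, with a median of -0.31, which lay 0.01 from all tested probes with either median scaling. With the replicate number as a block 34 were lower and 1 higher, and with gProcessedSignal 6 were lower. When replicate 1, 2 or 3 of the 24 °C group was omitted, 6, 7 or 9 were lower, and omission of replicate 1 of the 14 °C group left 9. Cyt-c-p, which encodes cytochrome c, came closest to the members with -0.94 ± 0.09 (adjusted p = 0.000174 by limma), followed by the complex I subunit ND-AGGG at -0.83 ± 0.10, by SdhA, which is on this list too, and by the assembly factor of cytochrome c oxidase Cox11 at -0.62 ± 0.08. None of the genes of these 2 lists was among the 8 member genes with a symbol, while members without a symbol could not be compared by name.

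Other metabolic lists were mixed. In beta oxidation 1 of 16 genes was lower, CPT2, a carnitine palmitoyltransferase, at -0.57 ± 0.08, and 1 was higher, Hnf4, a nuclear receptor, at 0.57 ± 0.08 (adjusted p = 0.00125 and 0.00135 by limma). A dimmer Hnf4 probe had 0.48 (adjusted p = 0.0679 by limma). In glycolysis 3 of 16 genes were lower, Treh, Ldh and Tpi, with -0.90 ± 0.09, -0.87 ± 0.11 and -0.63 ± 0.08, and 1 was higher, Pdp, with 0.53 ± 0.08. Treh encodes trehalase, which splits the sugar of insect blood, Ldh lactate dehydrogenase and Tpi triose phosphate isomerase, while Pdp encodes a phosphatase that activates pyruvate dehydrogenase. Of 10 glutathione S-transferase genes, which encode detoxifying enzymes, 2 were lower, GstE5 at -0.82 ± 0.11 and GstE8 at -0.55 ± 0.08, and 1 was higher, GstE2 at 0.44 ± 0.09. The 3 genes of glutathione S-transferases named had adjusted p values between 0.000911 and 0.00811 by limma, and those of glycolysis between 0.000177 and 0.00207.

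Over all lists, 40 genes were lower and 4 higher. That 0 of them reached a difference of -1 follows largely from leaving out the genes of the members, which were chosen for such a difference. These counts depended on the scaling and on single arrays. The list genes that passed as lower numbered 16, 18 and 24 when replicate 1, 2 or 3 of the 24 °C group was omitted, and 25 when replicate 1 of the 14 °C group was. With arrays scaled to their medians, 0 list genes passed in either direction by limma, as was true of all tested probes, of which 155 were lower at an unadjusted p under 0.05 when all gene spots set the scale and 2226 when spots above background did. Relative to all tested probes, the median of the small heat shock proteins was then -0.56 and that of the degradation of branched amino acids -0.42, and those of glycolysis and of the other chaperones 0.09 and 0.05. The members' own median stayed at -1.07.

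**Figure D5:**
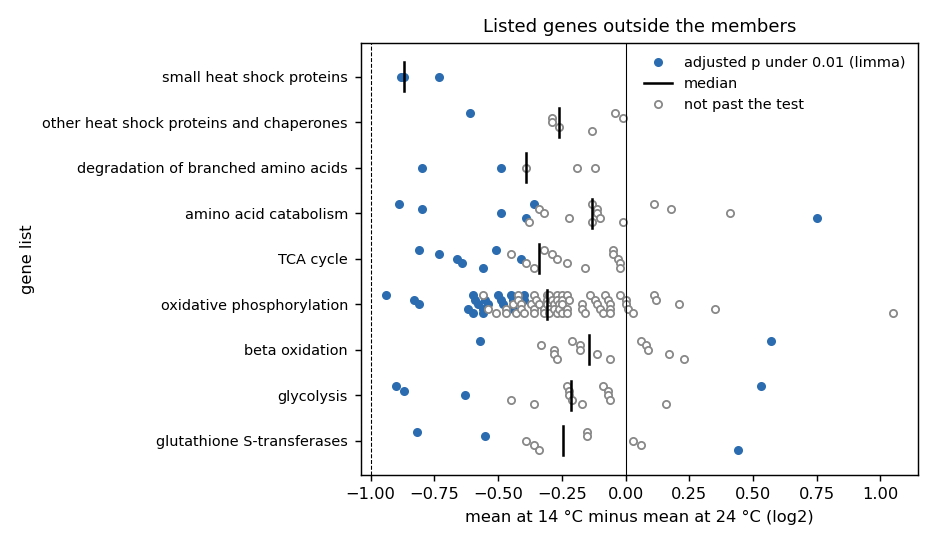
Difference between the temperatures (mean quantile-normalized log2 level at 14 °C minus that at 24 °C) for each listed gene outside the members, 1 point per gene. Filled points passed the limma test at an adjusted p under 0.01, bars are medians of the lists, and the dashed line at -1 is the threshold of the members. The 3 small heat shock protein genes have a median of -0.87, and no other list has a median below -0.39, while with median scaling 0 genes passed.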

How the data were processed

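The authors deposited the scanner output of 6 arrays (Agilent Feature Extraction 10.7.3.1 per the file headers), which holds spot brightness as intensity on a linear scale together with flags for control, outlier, saturated and above-background spots, the deposited flags being yes or no values. They also deposited a table of processed log2 values per probe, whose scale was inferred from the scanner files (column medians 7.02 to 7.03, r = 0.999 between its differences and those computed here across tested probes). Normexp, quantile normalization, surrogate variables and medians of repeated spots are named in the study's methods.

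Members were chosen on the authors' log2 values. For all other values, median spot intensities were corrected with normexp (offset 50) against median background. Control and outlier spots were left out, log2 values were quantile-normalized, and repeated spots were summarised by their median. Of 32162 probes, 18789 were tested, those above background in at least 50% of spots on 2 of 3 arrays of a group and with values on all 6 arrays, which left out 24 with a missing value. All 69 members had all 6 values. Differences are 14 °C minus 24 °C, with limma (lmFit and eBayes, two-sided, no covariates) and Benjamini-Hochberg adjustment over all tested probes. A listed gene was represented by its brightest tested probe. The scripts were tested on simulated data. R 4.3.3, limma 3.58.1, the package data.table (version 1.17.8), matplotlib 3.10.9 and pandas 2.3.3 were used.

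Symbols came from the study's annotation (2824 probes), shared transcript identifiers (910) and RefSeq accessions (360), which named 12.7% of probes. The scanner files hold no positions or sequences, so none are given. All members with a symbol, the 2 without one that had the greatest differences, the 3 probes on each side of the threshold and at most 4 tested genes per list were named by rule, while further identifiers and the list genes that did not pass were chosen after their values were seen. The members and all lists, 5 curated by the study and 4 added here, were chosen with earlier results of these data known. Same-numbered arrays of the 2 groups deviated together (r = 0.20, 0.30 and 0.39 across tested probes, against -0.30 to 0.05 for other pairs), so the numbers were treated as pairs in a blocked alternative. The study's methods call the replicates biological. The small number of arrays limits the precision. Scaling, background correction, filters, blocks and left-out arrays were varied.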

Additional observations from a re-analysis of the deposited data

How the results depend on the processing

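All 69 members were lower at 14 °C with every alternative that was run. Since members were chosen as lower on every 14 °C array and the alternatives reuse the same 6 arrays, this direction was largely given beforehand. The number with a difference of at least 1 (57) was 6 with median scaling over all gene spots, and 49 to 63 with single arrays left out. When 0.9 or 1.1 replaced 1 both in the rule and in this count, the numbers were 86 of 108 and 35 of 44 probes. The members' median (-1.11) was -0.66 with median scaling over all gene spots, -1.24 with median scaling over spots above background, -1.45 with gProcessedSignal (the software's corrected signal) and the 75th percentile, -1.21 with offset 16, -1.18 in the authors' table, and -1.16 to -1.09 with single arrays left out. CoolDown probes (64) numbered 0 with both median scalings, 207 with gProcessedSignal and 57 to 72 with single arrays left out. List genes lower (40) and higher (4) numbered 0 and 0 with both median scalings, 11 and 2 with gProcessedSignal, and 16 to 47 and 1 to 4 with single arrays left out. The cause was not tested. With median scaling over all gene spots, where the median of all tested probes was 0.41, the differences of Mdh2 (0.02), mAcon1 (0.06), Cox11 (0.06), kdn (0.07), CPT2 (0.07), Tpi (0.11), Mccc2 (0.13), Hsp60A (0.16) and GstE8 (0.17) changed sign, and with scaling over spots above background that of GstE2 (-0.01) did.

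With the replicate number as a block, for paired arrays, 57 members, a median of -1.11 and 64 CoolDown probes were unchanged, and 56 and 5 list genes were lower and higher. All 24 named list genes kept their calls. With the slide as a block these were 34 and 4 list genes. Surrogate variables were replaced by the first component of the residuals, and an alternative on promoter windows was not run, as no sequences were used here. Probes near background have compressed differences.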
